A study of Mus musculus with 2 samples.

Results

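Imprinted genes are expressed mainly from the copy inherited from 1 parent, and they lie in clusters that share a control region whose DNA methylation was set in the egg or the sperm. Within a cluster some genes are expressed from the paternal copy and their neighbours from the maternal copy, and long noncoding RNAs often take part in silencing in cis. In the embryonic brain and the placenta these genes are known as regulators of growth, of hormone and growth factor signalling and of neuronal development. The gene set described here was chosen by name, with earlier results of these data known. It holds 42 genes of 16 clusters or single loci. The expressed parental copy was taken from textbook knowledge (22 paternal, 16 maternal, and Blcap, Grb10, Ube3a and Gnas, whose expressed copy depends on the promoter or the cell type). Of the 42, 41 had a row in both gene tables, out of 43346 annotated gene rows, and Peg13, a paternal noncoding RNA, was not analysed here.

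Total RNA of mouse forebrain at embryonic day 10.5 was sequenced in 2 libraries of 1 group, each from 10 ng of RNA. Replicate 1 pooled 69 embryos and replicate 2 pooled 51 embryos of strain B6NCrl, males and females mixed, healthy and with no treatment named. The tables held 43021202 and 39215064 expected counts, of which 41537304 and 38012457 lay in annotated genes. Forebrain markers were detected in 6 of 6 cases and HOX markers of hindbrain and cord in 0 of 6, while all 6 red blood cell, all 6 endothelial and all 8 mesenchyme markers were also detected. The tables do not separate the 2 parental copies, so every value is the sum of both. In RNA of whole tissue, fewer cells of a type and less RNA per cell cannot be told apart. The design has no second condition, so levels are described per library, in TPM (the share of transcripts that a gene holds once its length is taken into account), and no test of a condition was possible. Errors are SD over the 2 pools (n = 2). Intervals of ratios and limits for a count of 0 reflect counting error alone.

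Imprinted genes as a set were expressed widely in this tissue. At 1 TPM or more in both libraries, 32 of 41 members were detected, beside 32.4% of all annotated genes and, for the 34 protein-coding members, 25 beside 57.3% of protein-coding genes. At 10 TPM or more stood 26 of 41, beside 19.6%, and at 100 TPM or more 12 of 41, beside 4.03% of annotated genes. The median member was at 27.9 TPM in replicate 1 and 27.4 in replicate 2, and on the scale of log2(TPM + 0.1) it was 4.79 ± 0.02, beside 4.10 ± 0.01 over detected annotated genes and -2.79 over all annotated genes. Members together took 0.757% and 0.743% of the TPM of annotated genes. Mest, Nnat and Gnas alone held 64.2% of the members' TPM, so the set's total is largely that of these 3 genes. At least 1 member was detected in 15 of the 16 clusters, the exception being the single locus Rasgrf1.

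**Figure D1:**
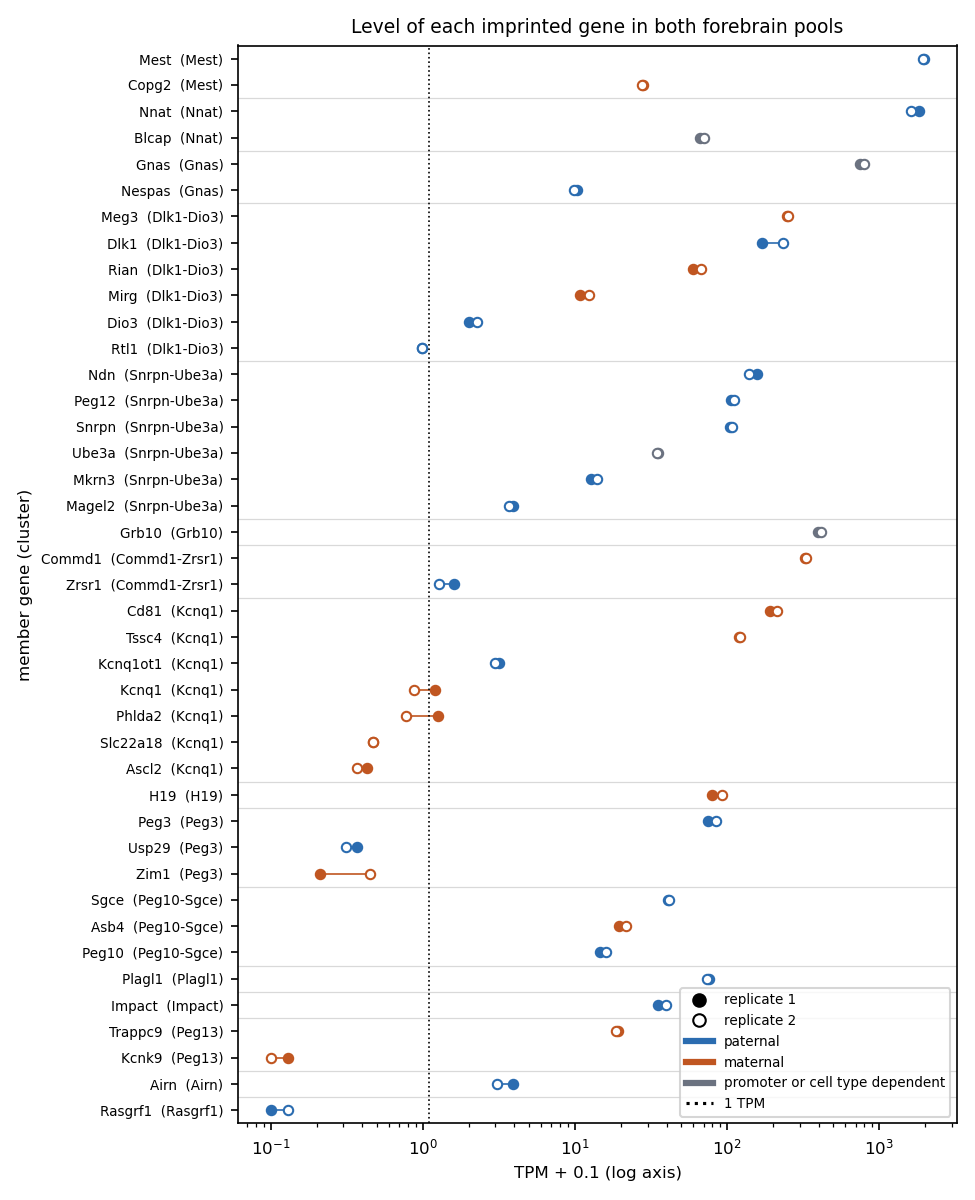
Level of each of the 41 members (TPM + 0.1, log axis) in replicate 1 (filled) and replicate 2 (open), grouped by cluster and coloured by the parental copy known to be expressed; the dotted line marks 1 TPM. Mest and Nnat lie at the top, Nnat at 1839.8 and 1626 TPM, and 9 members do not reach the line in both pools.

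Mest, a paternally expressed gene for a protein of the alpha/beta hydrolase fold, was the most abundant member. It reached 1981 TPM in replicate 1 and 1933 in replicate 2 (GRCm38 chromosome 6, 30723547 to 30748465, plus strand), ranking 43rd by mean TPM among annotated genes. Its convergent neighbour Copg2, a coatomer subunit expressed mainly from the maternal copy, stood at 27.9 and 27.4 TPM, 71.0-fold and 70.6-fold lower. The 2 genes share 912 exon bases on opposite strands, and since no source used here states the strand used in counting, reads of that stretch cannot be assigned. Of Mest TPM, 98.3% and 98.1% came from transcripts that start near position 30738050, and 0.05% and 0.04% from a class of starts near 30733506. The window upstream of the leading start is shown because it holds the hexamer TGCCGC, which the methylation-dependent zinc finger protein ZFP57 is known to bind at imprinted control regions. Capitals mark the hexamer in either orientation (TGCCGC or GCGGCA), and all windows are the 250 bases before a RefSeq start on GRCm38.p6, printed along the gene's strand. Such windows were listed for 32 of the 41 members, and the ones printed overlap no exon annotated in GENCODE M21.
Mest, leading start, chr6:30737800-30738049, plus strand: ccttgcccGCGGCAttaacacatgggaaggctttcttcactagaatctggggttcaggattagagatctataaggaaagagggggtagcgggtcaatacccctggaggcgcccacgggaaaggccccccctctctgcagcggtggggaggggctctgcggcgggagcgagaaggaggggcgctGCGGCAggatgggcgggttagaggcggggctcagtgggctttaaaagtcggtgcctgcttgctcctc
The hexamer occurs there at 242 and at 67 bases before the start. Over all 32817 windows of this length in the reference, 8.68% hold it on either strand, and among member windows 6 of 43 did (14%), in Mest, Copg2, Zim1, Plagl1 and Meg3. The Mest windows before starts 30738050 and 30738053 overlap, hold the same hexamers and are both counted among the 6. A match is a description of letters, not of binding. Member windows held a median of 12 CpG dinucleotides, beside 6 over all windows (quartiles 2 and 16).

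Nnat encodes neuronatin, a small membrane protein of the endoplasmic reticulum, and lies inside an intron of Blcap on the opposite strand (chromosome 2, 157560078 to 157562522, plus strand). Its level was 1839.8 TPM in replicate 1 and 1626 in replicate 2, rank 50 among annotated genes. Blcap, a gene of growth arrest and cell death whose imprinting is tied to particular transcripts in brain, was at 66.6 and 70.2 TPM. The contained gene therefore exceeded its host 27.6-fold and 23.1-fold. Nearly all Nnat TPM (99.7% and 99.6%) came from 1 start class, and the leading Blcap class held 93.5% and 92.6%.

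Gnas encodes the stimulatory G protein subunit Gs-alpha and, from promoters upstream, transcripts with opposite imprinting: Nesp from the maternal copy, Gnasxl and exon 1A from the paternal copy. The whole gene (chromosome 2, 174284320 to 174346744, plus strand) was at 742.8 and 791.0 TPM. Transcripts were grouped by annotated start, joining starts within 500 bases. The Gs-alpha class held 95.9% of Gnas TPM in replicate 1 and 97.1% in replicate 2. Exon 1A transcripts held 2.46% and 1.36%, Nesp 0.73% and 0.78%, and Gnasxl 0.05% and 0.04%. The Gs-alpha promoter, expressed from both copies in most tissues, thus held nearly all Gnas RNA in these estimates, and the paternal Gnasxl class was at 0.36 and 0.28 TPM. The exon 1A class rested on 466.2 and 228.6 expected counts, the largest relative difference between pools among these 4 classes. Most of it lay in a transcript of 1427 bases, at 201.3 and 10.2 counts, while the leading transcript of 832 bases was at 235.8 and 184.6. Gnas also shares 1469 exon bases with Gm20721 on the opposite strand. These class counts are estimates from reads that transcripts have in common. Nespas, the paternal RNA antisense to Nesp, was at 10.2 and 9.69 TPM, above the 5.39 and 6.14 TPM of the Nesp class, although Gnas and Nespas share 988 exon bases on opposite strands. The Nesp window is shown as the maternal promoter of this locus. It holds 14 CpG dinucleotides and no hexamer.
Gnas, Nesp start, chr2:174284070-174284319, plus strand: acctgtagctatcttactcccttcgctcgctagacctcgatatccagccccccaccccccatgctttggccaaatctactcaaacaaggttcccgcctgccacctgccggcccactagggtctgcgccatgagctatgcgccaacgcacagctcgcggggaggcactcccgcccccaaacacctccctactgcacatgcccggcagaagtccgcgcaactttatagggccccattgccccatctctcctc

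Grb10 encodes an adaptor that restrains insulin and insulin-like growth factor receptors. It is expressed from the maternal copy in most tissues and from the paternal copy, through downstream promoters, in neurons. It stood at 398.3 and 413.9 TPM (chromosome 11, 11930508 to 12038683, minus strand). A single start class at position 12037401 held 94.6% and 94.9% of its TPM. The class 10712 bases from the outermost start, at position 12027971, held 4.04% and 4.00%, and the next, 11951 bases away, 0.67% and 0.56%. Which of the downstream classes corresponds to the neuronal promoter was not tested. The windows before the first pair of these classes are shown side by side, since they differ in base composition: the leading one holds 40 CpG dinucleotides and 81.2% G and C, the downstream one 8 and 54%.
Grb10, leading start, chr11:12037421-12037670, minus strand: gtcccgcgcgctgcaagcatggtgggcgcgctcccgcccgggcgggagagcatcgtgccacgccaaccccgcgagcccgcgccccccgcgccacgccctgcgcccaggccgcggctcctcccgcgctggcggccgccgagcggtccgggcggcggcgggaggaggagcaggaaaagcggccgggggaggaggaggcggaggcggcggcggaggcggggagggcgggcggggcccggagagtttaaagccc
Grb10, downstream start, chr11:12027972-12028221, minus strand: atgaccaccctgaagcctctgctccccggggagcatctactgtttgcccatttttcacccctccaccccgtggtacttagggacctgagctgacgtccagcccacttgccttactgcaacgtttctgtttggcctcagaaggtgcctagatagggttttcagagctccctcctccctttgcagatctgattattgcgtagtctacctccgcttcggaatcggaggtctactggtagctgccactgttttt
Neither window holds the ZFP57 hexamer. Ube3a, the E3 ubiquitin ligase whose maternal copy is lost in Angelman syndrome and whose paternal copy is silenced in neurons, has 1 transcript row in the tables, so no promoter share can be given. Its level was 34.9 and 34.4 TPM. Snhg14, the host transcript that runs antisense to Ube3a on the paternal copy, was at 14.0 and 13.4 TPM, and the 2 share 1803 exon bases on opposite strands.

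**Figure D2:**
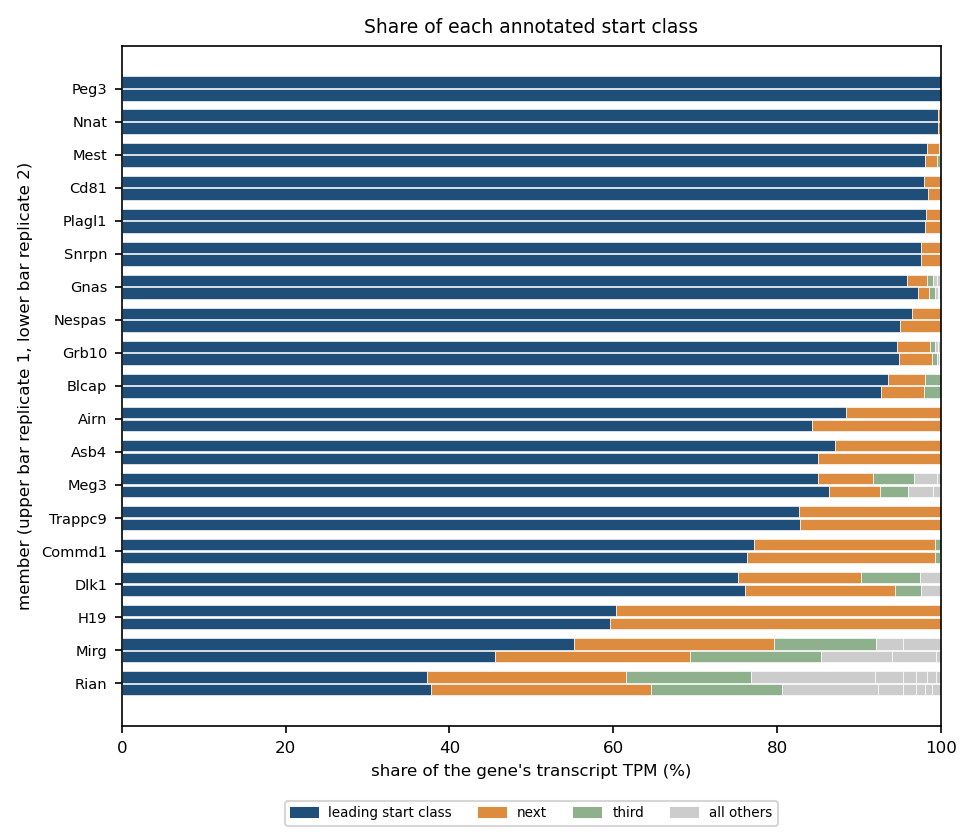
Share of a member's transcript TPM (%) in each class of annotated starts, for the 19 detected members with several classes; upper bars replicate 1, lower bars replicate 2, dark blue the leading class. The leading class is above 90% in both pools in 10 members and is smallest in Rian (37.2% and 37.8%).

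The Dlk1-Dio3 cluster on chromosome 12 pairs 3 paternal protein genes with 3 maternal noncoding RNAs that host small RNAs. Among the paternal genes, Dlk1, a transmembrane protein with epidermal growth factor-like repeats that holds progenitors undifferentiated, was at 169.4 TPM in replicate 1 and 234.5 in replicate 2. Dio3, the deiodinase that inactivates thyroid hormone, was at 1.91 and 2.18 TPM, and Rtl1, a retrotransposon-derived gene needed in placental vessels, at 0.88 in both. Dlk1 was thus 88.7-fold and 107.6-fold above Dio3 in the same library. Meg3, the leading maternal RNA, was at 247.5 and 249.6 TPM, Rian at 59.4 and 67.0, and Mirg at 10.7 and 12.3. Each of these was lower than the one upstream of it in both pools: Meg3 exceeded Rian 4.16-fold and 3.72-fold, and Rian exceeded Mirg 5.58-fold and 5.44-fold. Per length, Meg3 and Dlk1 had no settled order, since their difference of 0.32 ± 0.32 on the log2 scale did not exceed its SD. By expected counts Meg3 was higher in both pools (12110 and 11375, against 6121 and 7763 for Dlk1). Without division by length the difference was 0.77. The leading Meg3 start class held 85.0% and 86.3% of its TPM. Rian was spread over 11 start classes, the leading one at 37.2% and 37.8%, and Mirg over 7, the leading one at 55.2% and 45.5%. By expected counts another Mirg class led, with 41.6% and 41.5% against 39.6% and 32.1%. The window before the leading Meg3 start holds the hexamer once, 190 bases upstream, and is shown as the maternal counterpart of the paternal Mest window.
Meg3, leading start, chr12:109540746-109540995, plus strand: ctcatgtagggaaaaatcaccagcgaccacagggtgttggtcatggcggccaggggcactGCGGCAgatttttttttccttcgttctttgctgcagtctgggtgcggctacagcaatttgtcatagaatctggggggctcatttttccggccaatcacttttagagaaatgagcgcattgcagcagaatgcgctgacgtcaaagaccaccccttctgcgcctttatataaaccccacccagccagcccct

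Rtl1 overlaps miRNAs made from the maternal copy on the opposite strand. Of 13 mature miRNAs listed within the gene, 11 are perfectly complementary to an Rtl1 transcript. This match follows from their position on the opposite strand. By contrast, miR-3071-3p and miR-3071-5p lie on the strand of Rtl1 and are not complementary to it. Of the 11, 6 are shown as RefSeq lists them, with the seed (bases 2 to 8) in capitals. They illustrate the pairing of a paternal message with maternal miRNAs at 1 locus, and the libraries did not measure them.
mmu-miR-127-3p: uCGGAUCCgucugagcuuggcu
mmu-miR-136-5p: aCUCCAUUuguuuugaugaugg
mmu-miR-431-5p: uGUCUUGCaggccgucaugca
mmu-miR-432: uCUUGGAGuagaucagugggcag
mmu-miR-433-3p: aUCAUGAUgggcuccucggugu
mmu-miR-434-3p: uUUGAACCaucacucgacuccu
No 2 of these 6 seeds are the same. Rtl1 itself drew 153 and 138 expected counts. Between Meg3 and Mirg the tables list 76 miRNA and snoRNA rows on the same strand, of which 69 had an effective length of 0 and could receive no level, and 1 count in all fell in these rows. Within Snhg14 all 208 such rows had an effective length of 0. The levels above are therefore those of the host transcripts only.

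The Snrpn-Ube3a cluster on chromosome 7, the region of Prader-Willi and Angelman syndromes, was detected with all 6 of its members. Ndn, the growth-restraining protein necdin, was at 156.1 and 138.9 TPM. Peg12, a relative of the Frat proteins that bind Gsk3, was at 105.4 and 111.2 TPM, and Snrpn, the SmN spliceosome protein, at 104.4 and 108.0. Mkrn3, a RING finger gene that restrains puberty, was lower at 12.7 and 13.8 TPM, and Magel2, a regulator of ubiquitin ligases and endosomal sorting, lower still at 3.84 and 3.59. The paternal genes of the cluster thus spanned from Magel2 to a level 40.7-fold and 38.7-fold higher in Ndn. Snrpn minus Ndn was -0.47 ± 0.15 on the log2 scale. Ndn also exceeded Peg12 by 0.44 ± 0.17 per length, but the difference was -0.27 on expected counts scaled to library size without division by length. Snrpn exceeded Ube3a 2.99-fold and 3.14-fold per length, but by 0.17 on the log2 scale without division by length. Of Snrpn TPM, 97.5% and 97.6% came from a start 135108 bases downstream of the outermost one, and 2.48% and 2.42% from that outermost start. Snrpn shares 216 exon bases with Snurf on the same strand, so the split of counts between them is an estimate.

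Paternal zinc finger genes were also well expressed. Peg3, a Krüppel-type zinc finger protein, was at 74.5 and 84.6 TPM (chromosome 7, 6703892 to 6730431, minus strand). Its neighbour Usp29, which encodes a ubiquitin protease, was at 0.27 and 0.21 TPM on 19 and 13 counts. The 1 quantified Usp29 transcript starts at position 6961160 of chromosome 7, which is 230729 bases from the leading Peg3 start, so its level does not measure the output of the start that faces Peg3. Zim1, the maternal neighbour, was at 0.11 and 0.35 TPM on 10 and 26 counts. Peg3 was 276.1-fold and 402.6-fold above this Usp29 transcript. Plagl1, a zinc finger factor that regulates other imprinted genes and cell cycle exit, was at 75.7 and 73.9 TPM, with 98.2% and 98.0% from 1 start class whose window holds the hexamer once, 90 bases upstream.

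The Peg10-Sgce cluster holds a pair of genes that start side by side on opposite strands. Peg10, derived from a retrotransposon and needed in placenta, was at 14.4 and 15.8 TPM, and Sgce, the epsilon-sarcoglycan gene of myoclonus dystonia, at 40.5 and 41.1. Their outermost starts lie 99 bases apart on chromosome 6, at 4747306 and 4747207. The start class at that site held 66.6% and 68.9% of Peg10 TPM, the rest coming from 1 transcript whose start was not placed, and 97.0% and 96.1% of Sgce TPM. Peg10 minus Sgce was -1.43 ± 0.08 on the log2 scale, an order that turned without division by length, where Peg10 was 0.19 higher. Asb4, a maternal ankyrin repeat and SOCS box gene, was at 19.5 and 21.5 TPM, and Sgce exceeded it 2.08-fold and 1.91-fold per length. Without division by length their difference was 0.015 on the log2 scale and changed sign between the pools. Sgce drew 1641 and 1503 expected counts and Asb4 1569 and 1540. H19, the maternal noncoding RNA that restrains growth, was at 79.3 and 92.7 TPM. Igf2, the paternal growth factor gene that shares enhancers with H19, was at 105.9 and 111.8. H19 minus Igf2 was -0.34 ± 0.10 on the log2 scale per length, while H19 was 0.25 higher without division by length. By TPM the leading H19 start class held 60.4% and 59.6%, but by expected counts the other class led with 50.7% and 52.5%.

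Members of the Kcnq1 cluster on chromosome 7 fell into a high and a low set. Cd81, a tetraspanin, was at 190.0 and 213.1 TPM, and Tssc4, a spliceosome assembly factor, at 120.5 and 121.2. Both are imprinted mainly in extraembryonic tissue. Kcnq1ot1, the paternal noncoding RNA that silences the cluster, was at 3.05 and 2.87 TPM, but over its length this amounted to 7123 and 6045 expected counts. Kcnq1, a potassium channel gene within which Kcnq1ot1 begins, was at 1.10 and 0.78 TPM. Kcnq1 minus Kcnq1ot1 was -1.57 ± 0.26 on the log2 scale, but -0.31 with posterior mean TPM and -6.94 without division by length. Phlda2, which limits placental growth, was at 1.15 and 0.67 TPM on 21 and 11 counts. Slc22a18, an organic cation transporter gene, was at 0.37 in both, and Ascl2, a trophoblast transcription factor gene, at 0.33 and 0.27. Phlda2, Slc22a18 and Ascl2 thus lay near or under 1 TPM, while Peg10, also a gene needed in placenta, was at 14.4 and 15.8 TPM. Trophoblast markers were detected in 0 of 6 cases (summed level 0.20 and 0.17 TPM, with 3 of 6 at 0 in both pools). Yolk sac endoderm markers were detected in 1 of 6 (2.72 and 3.16 TPM). A link between these markers and the levels of the cluster was not tested.

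The other silencing RNA, Airn, was at 3.80 and 2.99 TPM on 96 and 75 counts. Igf2r, the receptor gene that Airn silences on the paternal copy, was at 17.6 and 17.4 TPM, 4.64-fold and 5.82-fold above it per length. Airn was quantified at a length of 1012 bases and Igf2r at 8633 in replicate 1. On the log2 scale Igf2r minus Airn was 2.34 per length but 5.47 without division by length. Commd1, a gene of copper and NF-kB regulation listed here as maternal, was at 326.3 and 331.6 TPM. Zrsr1, a paternal splicing-related retrogene inside Commd1, was at 1.51 and 1.18. The host thus exceeded the contained gene 216.1-fold and 281.0-fold per length, the opposite of Blcap and Nnat. On the log2 scale Commd1 minus Zrsr1 was 7.84 per length but 5.10 without division by length. Commd1 and Zrsr1 share 412 exon bases on opposite strands. Trappc9, a vesicle trafficking gene with a maternal bias in brain, was at 18.97 and 18.56 TPM. Kcnk9, a potassium leak channel gene of the same cluster, drew 1 count in replicate 1 and 0 in replicate 2, where 3 counts would be 0.11 TPM. Impact, an inhibitor of the Gcn2 stress kinase, was at 35.2 and 39.4 TPM. Rasgrf1, a Ras exchange factor of adult neurons, drew 0 and 2 counts, and 3 counts would be 0.04 TPM in either library.

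**Figure D3:**
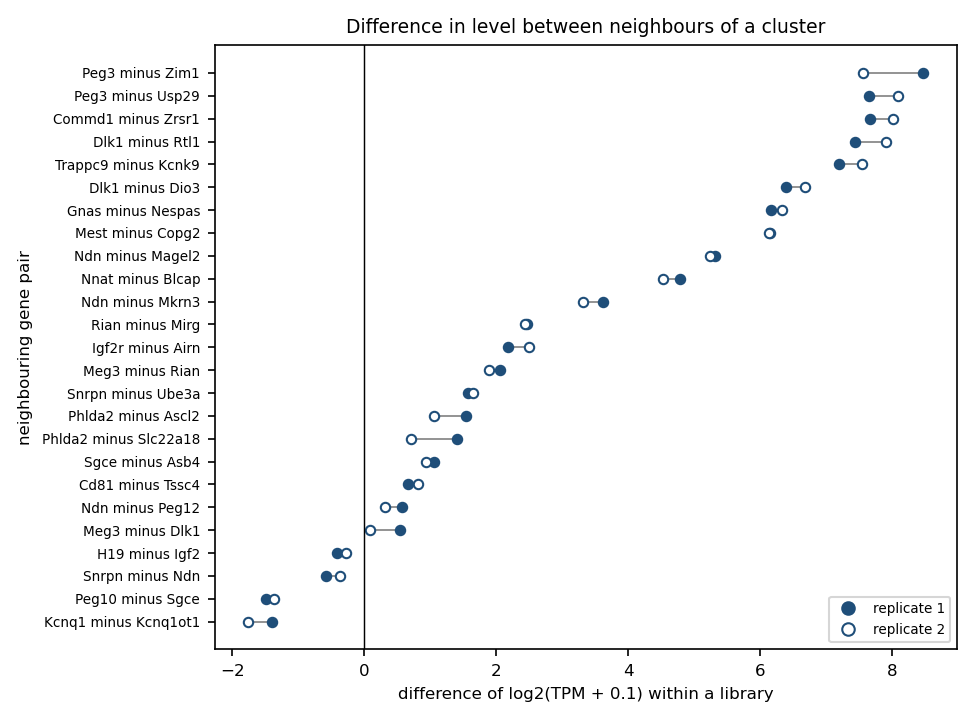
Difference of log2(TPM + 0.1) between neighbouring genes of a cluster, within replicate 1 (filled) and replicate 2 (open); above 0 the first gene is higher. Of 25 pairs, 20 have the first gene higher, 4 the second, and Meg3 minus Dlk1 (0.55 and 0.09) has no order beyond its SD.

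Across the 25 neighbouring pairs with values, 24 differed in the same direction in both pools by more than the SD. Peg3 minus Zim1 was 8.01 ± 0.65 on the log2 scale, Peg3 minus Usp29 7.87 ± 0.31 and Commd1 minus Zrsr1 7.84 ± 0.25. In each of these 3 pairs the first gene was higher in both pools, but which of the 3 differences is largest was not settled. With a pseudocount of 1 they were 6.04, 6.02 and 7.14. Levels thus differed widely between the neighbours in these 3 pairs. Paternal and maternal members overlapped widely. The median paternal member was at 14.4 and 15.8 TPM (21 genes, 18 detected) and the median maternal member at 19.2 and 20.0 (16 genes, 10 detected). On the log2 scale the paternal minus the maternal median was -0.38 ± 0.05, but the sign turned with means in place of medians (0.80) and without division by length (0.067), so no order of the parental lists held across these scales. By summed TPM the paternal genes held 65.3% of the members' total and the maternal genes 16.3%, with Mest and Nnat making up most of the paternal sum. The maternal sum of 1103 and 1157 TPM includes Cd81 (190.0 and 213.1) and Tssc4 (120.5 and 121.2), which are imprinted mainly in extraembryonic tissue. Its largest member is Commd1 (326.3 and 331.6), whose expressed copy at this stage was not measured. These sums by known parental copy are therefore not sums of RNA from 1 copy in this tissue.

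The 2 pools were within 1.2-fold for nearly every member with enough counts for a ratio. Ratios of replicate 2 to replicate 1 were taken for the 33 members that averaged at least 50 counts, and none was past 1.5-fold, beside 2.93% of 13842 annotated genes (0.91% higher and 2.02% lower in replicate 2). Past 1.2-fold were Dlk1 and Zrsr1, beside 14.2% of those genes, and at a mean of 1000 counts Dlk1 alone of 25 members, beside 2.05%. The median member ratio was 1.02, beside 1.00 over all. Regardless of direction, the median absolute log2 ratio was 0.109 for these members, larger than the 0.084 over all tested genes. For 18 of the 33 the counting interval left out 1, beside 34.5% of the 13842 genes, with 12 higher (17.5% of all) and 6 lower (17.0%) in replicate 2. All 18 were among the 25 members averaging at least 1000 counts, where 39.2% of 7421 genes did the same. Such intervals are narrow at these depths and do not include variation between pools, for which the common coefficient of variation over 16637 genes was 6.59%. Nnat was lower in replicate 2 at 0.877-fold (95% exact interval 0.866 to 0.888) and Ndn at 0.882-fold (0.850 to 0.914). Peg3, H19 and Rian were each 1.14 to 1.15-fold higher.

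**Figure D4:**
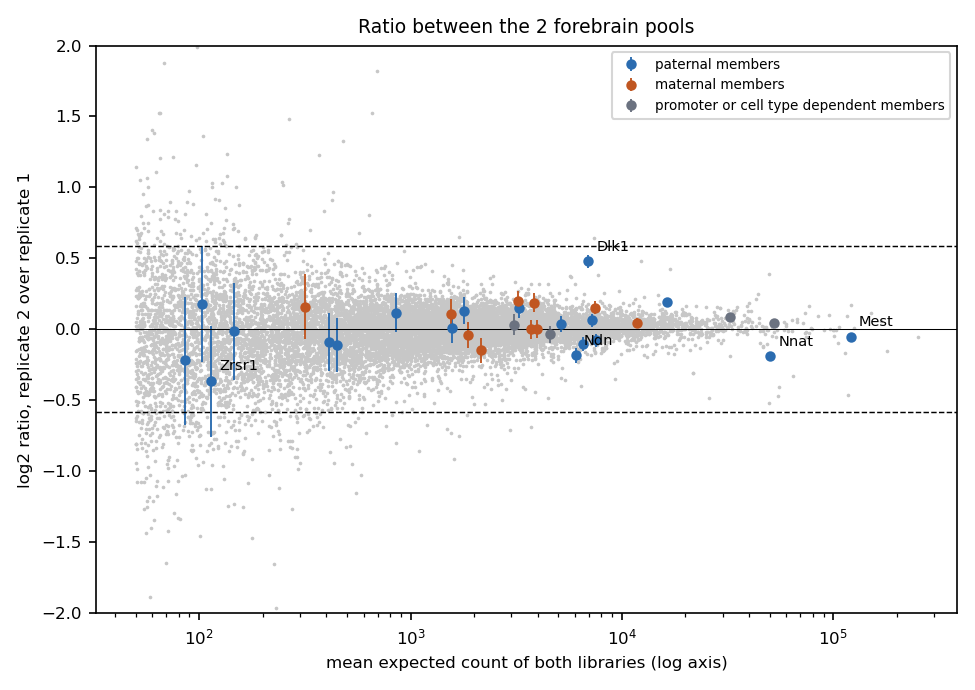
Log2 ratio of replicate 2 to replicate 1 against the mean expected count (log axis) for annotated genes averaging at least 50 counts (grey; 8 genes lie beyond the axis) and for 33 members with 95% exact counting intervals; dashed lines mark 1.5-fold. Dlk1 stands highest among the members at 1.39-fold, inside the dashed lines.

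Dlk1 differed most between the pools among the 33 members tested. It drew 6121 expected counts in replicate 1 and 7763 in replicate 2, a ratio of 1.39 after scaling (95% exact interval 1.35 to 1.44). Among 7421 genes averaging at least 1000 counts, 0.283% had a ratio at least as far from 1. Of the 13842 genes at 50 counts, 4.84% did, and 1.64% were higher in replicate 2 by as much. The ratio was 1.03 for Meg3, 1.15 for Rian, 1.12 for Mirg, 1.13 for Dio3 (0.853 to 1.501, which holds the Dlk1 value) and 0.992 for Rtl1 (0.782 to 1.26), and differences between these genes were not tested. Dlk1 is known in the hypothalamus and the pituitary. The summed level of 6 hypothalamus and optic markers was 24.3 TPM in replicate 1 and 52.2 in replicate 2 (5 of 6 detected, Vax1 not, none at 0). Most of that gain was in Pmel, a pigment cell gene, at 5.82 and 20.8 TPM, and in the eye field genes Rax at 3.47 and 9.79 and Six6 at 2.71 and 6.85. The hypothalamic gene Nkx2-1 was at 10.2 and 12.2 TPM, Mitf at 1.65 and 1.71 and Vax1 at 0.42 and 0.89. The summed level of 6 pituitary rudiment markers was 18.8 and 23.8 TPM (3 of 6 detected, none at 0). Summed levels of 6 neuronal markers were 390.3 and 301.0 TPM and of 6 erythroid markers 17376 and 12868, every marker of both lists detected, while 8 mesenchyme markers were at 499.8 and 494.3. The part of these cell types in the Dlk1 difference was not tested. Zrsr1, at 0.778-fold, rested on 132.9 and 93.9 counts, and its interval of 0.590 to 1.02 includes 1.

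Other imprinted genes outside the set were listed for comparison. Beside 32.4% of all annotated genes and 57.3% of protein-coding genes, 29 of the 40 with a row reached 1 TPM in both pools. The highest were Nap1l4, a histone chaperone gene, at 291.0 and 306.4 TPM, and Cdkn1c, the maternal cell cycle inhibitor gene of the Kcnq1 region, at 117.6 and 138.4. Igf2 followed, then Dhcr7, the last enzyme of cholesterol synthesis, at 74.5 and 82.1 TPM, and H13, a signal peptide peptidase gene, at 76.6 and 79.5, a pair with no settled order. Genes that keep imprints after fertilisation were present with 8 of 10 detected. Trim28, the corepressor that ZFP57 recruits, was at 353.6 and 358.5 TPM, and Uhrf1 and Dnmt1, which copy methylation at replication, at 279.9 and 292.8 and at 122.9 and 126.7. Zfp57 itself was at 68.7 and 67.1 TPM, and Zfp445, its partner in imprint maintenance, at 42.4 and 43.3. Dppa3 drew no count in either pool, where 3 counts would be 0.16 and 0.18 TPM, and Dnmt3l drew 2 and 0 counts; both act mainly in germ cells and the early embryo.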

How the data were processed

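Both libraries were sequenced from total RNA with a size range above 200, extracted with mirVana, per the labels' protocols. The notes the authors deposited name assembly mm10 and annotation M4. No source used here names the aligner, the quantifier or the strand setting. The expected counts are unnormalised estimates of reads per gene or transcript, per the file headers. The deposited TPM and posterior mean TPM are divided by effective length and cover all rows, spike-ins included. The deposited percent of each transcript is its share of the gene's TPM, per the file headers.

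Members were matched by Ensembl identifier through GENCODE M21, whose coordinates on GRCm38 are 1-based. The members, lists and pairs were chosen with earlier results of these data known. The text names every member that reached 1 TPM in both libraries and every member of a pair. For the other imprinted genes it names the 5 of highest mean TPM. Levels are log2(TPM + 0.1). An order in a pair needs the same sign in both libraries and a mean above the SD. Ratios are expected counts plus 0.5 over library sizes scaled by TMM (edgeR 4.0.16, R 4.3.3), with 95% exact binomial intervals. The common dispersion came from edgeR on rounded counts with an intercept only. With 1 group no contrast was fitted and no p-value is given. Labels call the libraries biological replicates from separate pools. Start classes join annotated starts within 500 bases, and 4 of 239 member transcripts could not be placed. Promoter and miRNA sequences are from RefSeq on GRCm38.p6. The ratio step was tested on simulated data. Python 3.11.15 with pandas 2.3.3, numpy 2.4.6, scipy 1.17.1 and matplotlib 3.10.9 served all other steps, and DESeq2 1.42.0 gave alternative size factors.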

Additional observations from a re-analysis of the deposited data

How the results depend on the processing

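The number of detected members was 30 to 35 of 41 under every alternative tried, and 32 to 34 with either replicate left out. The median member level on the log2 scale was 4.81 with posterior mean TPM, 5.76 without division by length, 4.84 with a pseudocount of 1, 6.04 over detected members and 4.12 as a mean, and 4.78 to 4.81 with a replicate left out. The paternal minus maternal difference was -0.91 over detected members, 0.067 without division by length and 0.80 with means, so its sign rests on the scale and the summary, and it was -0.41 to -0.34 with a replicate left out. The members' share of TPM was 0.735% with posterior mean TPM and 0.926% without division by length, and 0.743% to 0.757% with a replicate left out. Of the 25 pairs, 23 to 25 had an order under each alternative. Without division by length, 3 orders turned: H19 minus Igf2 to 0.25, Ndn minus Peg12 to -0.27 and Peg10 minus Sgce to 0.19. On that scale Sgce minus Asb4 (0.015) and Phlda2 minus Slc22a18 (0.23) changed sign between the pools and had no order. Meg3 minus Dlk1, with no order per length, was 0.77 there, with Meg3 higher in both pools. Other pairs kept their order there with another size: Snrpn minus Ube3a 0.17, Commd1 minus Zrsr1 5.10, Igf2r minus Airn 5.47, Ndn minus Magel2 3.74 and Ndn minus Mkrn3 2.81. So did Nnat minus Blcap at 4.02, Rian minus Mirg 3.34, Dlk1 minus Rtl1 5.53, Phlda2 minus Ascl2 0.29 and Trappc9 minus Kcnk9 8.73. Kcnq1 minus Kcnq1ot1 was -0.31 with posterior mean TPM, and Phlda2 minus Slc22a18 0.28. With a pseudocount of 1, Peg3 minus Usp29 was 6.02, Dlk1 minus Rtl1 6.74 and Trappc9 minus Kcnk9 4.28. No member was past 1.5-fold with DESeq2 size factors, total counts or TPM ratios, nor past 2-fold. With genes down to a mean count of 10 there were 2 of 39 (9.31% of all genes), and with no filter 4 of 41 (16.1%), which were Zim1, Phlda2, Kcnk9 and Rasgrf1. The leading Grb10 class was at 95.9% by expected counts and 94.3% by posterior mean TPM, and 94.6% to 94.9% with a replicate left out. By expected counts the leading class changed for H19 and Mirg. The leading Gnas class was at 95.9% to 97.1% with a replicate left out. No paired analysis was possible because there is only 1 group. Low counts limit the members near the floor: the ratio of Usp29 between the pools has a 95% exact interval of 0.341 to 1.61, and that of Ascl2 0.312 to 1.90.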
